A study of Mus musculus with 55 samples.

Results

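The 10 genes Dnmt1, Dnmt3a, Dnmt3b, Dnmt3l, Uhrf1, Tet1, Tet2, Tet3, Dppa3 and Zfp57, which write, erase or guard DNA methylation, were followed through 24 RNA sequencing libraries of mouse oocytes. The genes were taken by name from a table of 33924 genes, and in a second table of 37310 features they were found as the rows with identical exon coordinates, which held for 10 of 10. In the growing oocyte experiment, 3 libraries labelled Dhx36_sko stood against 3 labelled control. The collection text of the labels gives the genotype as Dhx36fl/fl;SKO without expanding SKO, naming a Cre driver or giving an age, and it repeats the same sentence on growing oocytes for every sample. A second experiment held 1 library labelled rhau_sko and 2 labelled c, and with DRB 2 labelled rhau_sko_DRB and 1 labelled c_DRB, with each hyphen of the labels written as a low line. RHAU is another name of DHX36, a helicase that unwinds G-quadruplexes (folds of guanine-rich RNA or DNA), and DRB inhibits the kinase CDK9 and with it transcription elongation. Oocytes at the germinal vesicle (GV) stage, before meiosis resumes, gave 3 libraries labelled GV_cPDS with a time of 12 h and 3 labelled GV_C without a time. cPDS, or carboxypyridostatin, binds RNA G-quadruplexes and holds them folded. The last experiment held 3 Trim21 and 3 control libraries with a time of 3 h and the name Dhx36 in their titles. TRIM21 is a ubiquitin ligase that degrades antibody-bound protein in the Trim-Away method, and the labels do not say what the controls received. The labels do not say whether replicates are separate animals or pools, so p-values measure the spread between these libraries only.

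DNA methylation is copied at each cell division by DNMT1, which UHRF1 guides to hemimethylated DNA, and is laid down anew by DNMT3A and DNMT3B. DNMT3L has no catalytic activity of its own and stimulates DNMT3A. In the growing mouse oocyte, DNMT3A and DNMT3L set the maternal pattern, imprints included, and DNMT1 is stored in an oocyte form. The TET enzymes oxidise methylcytosine, and TET3 is the form that the mouse egg hands to the zygote. DPPA3, also called STELLA or PGC7, shields the maternal genome from this oxidation, and ZFP57 binds methylated imprinting control regions and keeps them methylated.

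In the mm9 coordinates of the deposited table, the writer genes Dnmt1, Dnmt3a, Dnmt3b and Dnmt3l lie at chr9:20711650-20757317 (minus strand), chr12:3806007-3914443 (plus), chr2:153475186-153513466 (plus) and chr10:77504692-77526367 (plus), and Uhrf1 at chr17:56442744-56462909 (plus). The eraser genes Tet1, Tet2 and Tet3 lie at chr10:62267318-62361866, chr3:133126643-133207354 and chr6:83312367-83391672, all on the minus strand. The guards Dppa3 and Zfp57 lie at chr6:122576428-122580290 and chr17:37138108-37147580, both on the plus strand. Counts were summed over all exons of each gene.

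The promoters of these genes are shown because a helicase and a ligand of G-quadruplexes are the agents of the study. RefSeq windows (GRCm38.p6, 250 bases before to 50 after a start) were at hand for 9 of the 10 genes, 18 windows in all, since several genes have more than 1 start. They were searched on both strands for 4 runs of GGG separated by 1 to 7 bases of any kind. Of all 32851 windows, 10.4% held such a run on the strand of the gene, 9.30% on the other strand and 18.5% on either, and overlapping matches were counted as 1. Among the 18 windows, 8 held a match, in Dnmt1, Dnmt3a, Dnmt3b, Dnmt3l, Tet3 and Zfp57. G and C made up 52.7% to 81.0% of these 8 and 43.0% to 82.3% of the others, against a median of 52.7% over all windows. No share was counted per gene or at a like G and C content, and 2 windows of Dnmt3a overlap each other. The windows of Tet1, Tet2 and Uhrf1 held none of these letters. The 3 windows below belong to the genes with the largest changes described further on, 2 that were lower with cPDS and 1 that was higher in sko oocytes, and capitals mark the match.
Dnmt1, chr9:20952574-20952873, minus strand, match on the strand of the gene: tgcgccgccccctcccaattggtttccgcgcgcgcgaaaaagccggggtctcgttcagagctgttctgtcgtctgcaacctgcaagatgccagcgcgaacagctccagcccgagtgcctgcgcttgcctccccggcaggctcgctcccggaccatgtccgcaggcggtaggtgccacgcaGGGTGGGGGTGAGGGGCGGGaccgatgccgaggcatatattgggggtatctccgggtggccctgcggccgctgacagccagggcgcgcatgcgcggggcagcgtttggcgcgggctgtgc
Zfp57, chr17:37002275-37002574, plus strand, match on the other strand: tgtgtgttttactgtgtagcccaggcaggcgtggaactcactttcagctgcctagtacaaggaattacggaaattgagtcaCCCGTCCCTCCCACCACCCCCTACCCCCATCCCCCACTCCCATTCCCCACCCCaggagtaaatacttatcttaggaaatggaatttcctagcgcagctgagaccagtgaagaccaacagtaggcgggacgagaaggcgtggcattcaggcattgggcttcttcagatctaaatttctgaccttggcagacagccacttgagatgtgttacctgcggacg
Tet1, chr10:62887275-62887574, minus strand, no match: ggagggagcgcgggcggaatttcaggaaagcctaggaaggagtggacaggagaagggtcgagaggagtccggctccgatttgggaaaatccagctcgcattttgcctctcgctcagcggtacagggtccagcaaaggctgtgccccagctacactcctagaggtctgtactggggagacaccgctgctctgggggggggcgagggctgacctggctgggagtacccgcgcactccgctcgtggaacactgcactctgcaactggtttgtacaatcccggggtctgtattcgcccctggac
The other windows of Dnmt1 and of Zfp57 held no match. Which start these oocytes use was not tested, so the printed Dnmt1 window need not be that of the oocyte form. A match is a string of letters and says nothing of folding or of transcription, and its relation to the changes described further on was not tested.

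The targeted gene and the cell type were checked before the members. Dhx36 read 1.87 to 3.02 CPM (the count scaled to the total of its library) in growing sko oocytes and 6.45 to 10.8 CPM in growing controls. In the second experiment it read 4.43 to 7.63 CPM in the 3 sko libraries and 39.2 to 46.9 CPM in the 3 c libraries, and in the last it read 6.08 to 8.96 CPM in Trim21 and 29.9 to 31.2 CPM in control libraries. Trim21 reached 7782 to 9329 CPM in Trim21 libraries and 14.4 to 14.9 CPM in their controls. All of these are transcript levels, and loss of DHX36 protein in the Trim experiment cannot be read from them. Total counts ran from 7452742 to 65444652 per library. Another 2 libraries, c_DRB replicate 4 with 129192 counts and rhau_sko replicate 6 with 127927, were left out for their depth, and the other 6 of that experiment are called the deep libraries. All 20 oocyte markers had counts in each experiment and took 1.32% to 5.94% of a library, whereas 17 granulosa and cumulus markers took 0.00256% to 0.0181%.

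To compare genes with each other, counts were divided by the exon length in the file as well as by the library total (RPKM). The 10 genes together took 0.535% to 1.24% of all counts. Dppa3 was the most abundant of the 10 per kilobase in 18 of 24 libraries and Zfp57 in the other 6, which were the growing oocytes. Dnmt1 ranked between 2 and 4 in every library, and Dnmt3b, Tet1 and Tet2 shared ranks 8 to 10. Depth was lowest for Tet2, whose smallest count was 22 in 1 library, so its values are the least precise.

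Dppa3 had the widest span between groups, with a mean of 9195 RPKM in Trim_control and 357 RPKM in growing control libraries, a ratio of 25.8. Its 6 growing libraries lay between 284 and 493 RPKM and the other 18 between 4503 and 10440 RPKM. Dnmt3l had the next widest, with 70.6 RPKM in GV_C and 4.56 RPKM in growing sko oocytes, a ratio of 15.5. The growing oocytes were also the lowest for the catalytic partner of DNMT3L, with Dnmt3a at 4.89 RPKM in growing sko and 4.55 RPKM in growing control oocytes against 8.44 to 19.7 RPKM in the other 8 groups. Zfp57 ran the other way, with 928 RPKM in growing control oocytes and 115 RPKM in cPDS-treated ones. Dnmt1 likewise was highest in growing control oocytes at 317 RPKM and lowest with cPDS at 61.0 RPKM.

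Tet3 and Uhrf1 were the steadiest members, with ratios between the highest and lowest group of 1.83 and 1.93. Of the 9 steps between neighbouring groups in the order of levels, 8 overlapped between libraries for Tet3, 7 for Uhrf1, 6 each for Dnmt1, Dnmt3a, Dnmt3b and Tet2, and 5 for Dnmt3l. For Tet1, Dppa3 and Zfp57 only 3 of the 9 steps overlapped. The groups rhau_sko and c_DRB hold 1 library each, and where they are neighbours, as for Dnmt3a, they cannot overlap. Tet1 had its highest group level in rhau_sko, 1 library at 2.74 RPKM, and its lowest mean in growing control oocytes, at 0.224 RPKM. The highest single library for Tet1 was rhau_sko_DRB replicate 7, at 2.91 RPKM. Experiment and, where it is given, stage differ together, so their parts in these levels cannot be told apart, and no test was made between them.

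**Figure D1:**
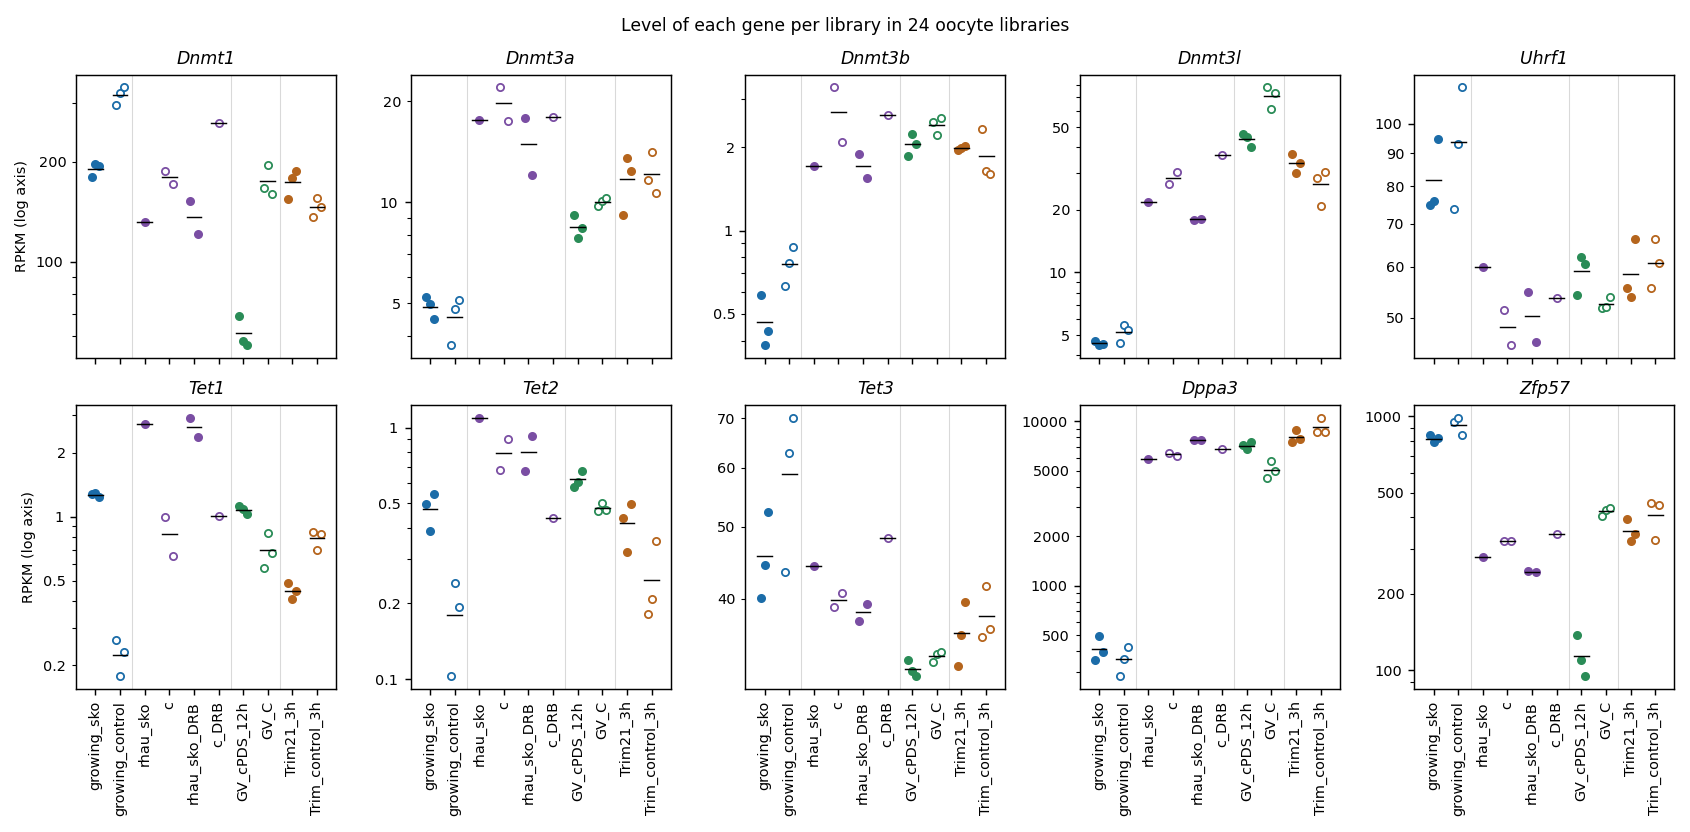
Level of the 10 genes in RPKM (log axis) in each of 24 libraries, in 10 groups from left to right, with blue for growing oocytes, purple for the DRB experiment, green for GV oocytes and brown for the Trim experiment. Filled points are sko, cPDS or Trim21 libraries, open points are their controls, and bars are group means; Dppa3 is at means of 357 and 415 RPKM in the growing groups and at 5066 RPKM or more elsewhere.

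In growing sko oocytes, transcripts of Dnmt1 were lower and those of the less abundant TET enzymes higher. Dnmt1 fell to about 939 normalised CPM, against 1780 in controls, and Tet1 rose 4.92-fold. In all, 2 of the 10 members rose (Tet1, Tet2), 6 fell (Dnmt1, Dnmt3b, Dnmt3l, Tet3, Uhrf1, Zfp57) and Dnmt3a and Dppa3 were not called. The call is an adjusted p under 0.05 in edgeR's quasi-likelihood test over 14081 genes, which called 53.7% of all genes, 28.5% higher and 25.2% lower. On TMM-scaled values the groups did not overlap for 7 of 10 members, and for 60.9% of all genes tested. On CPM without that scaling Dnmt3l and Tet3 overlapped too, which left 5 of 10. The share of all genes without overlap was not counted on CPM without that scaling, so this last count has no share beside it. The members' other counts were read against the shares above. The median log2 fold change was -0.37 over the 10 members and 0.02 over all genes.

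Dnmt1, the maintenance methyltransferase gene, had 887, 987 and 943 normalised CPM (on TMM-scaled library sizes) in the 3 sko libraries, against 1771, 1796 and 1772 in the 3 controls. Every sko library was lower than every control. The means were 939 ± 49.8 and 1780 ± 13.9 CPM (SD, n = 3 each), 1.90-fold lower, a log2 fold change of -0.92 ± 0.12 (SE; edgeR adjusted p = 7.98e-06). Uhrf1, the guide of DNMT1, had 298, 308 and 372 CPM in sko, against 358, 421 and 488 CPM in control libraries. The highest sko library passed the lowest control, so the groups overlapped, and the change was -0.37 ± 0.14 (log2 fold change ± SE; edgeR adjusted p = 0.0322).

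The de novo genes did not move as a block. Dnmt3b, expressed at a low level, had 2.80, 1.87 and 2.04 CPM in sko libraries, against 3.66, 4.16 and 4.50 CPM in controls. The groups did not overlap, and the log2 fold change was -0.87 ± 0.25 (edgeR adjusted p = 0.00741). Dnmt3l averaged 12.8 ± 0.292 CPM in sko and 16.4 ± 1.20 CPM in control oocytes (SD, n = 3 each; log2 fold change -0.36 ± 0.14, edgeR adjusted p = 0.0410). Its exons overlap those of Aire on the opposite strand, and since no strand setting of the counting is given, reads of the 2 genes cannot be told apart. Dnmt3a averaged 76.3 ± 6.61 CPM in sko and 80.5 ± 8.27 CPM in control oocytes and changed by -0.08 ± 0.13 (edgeR adjusted p = 0.623), and it shares an exon region with the antisense gene Gm10485.

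Among the erasers, Tet1 had 17.6, 18.1 and 16.9 CPM in sko, against 4.40, 2.80 and 3.43 CPM in control libraries. All 3 sko libraries were far above all 3 controls, a log2 fold change of 2.30 ± 0.18 (SE; edgeR adjusted p = 6.20e-08). Tet2 had 4.27, 3.41 and 4.64 CPM in sko, against 1.08, 2.36 and 1.79 CPM in controls, a 2.36-fold rise without overlap (log2 1.24 ± 0.29, edgeR adjusted p = 0.00202). Tet3, the dominant form, had 417, 469 and 536 CPM in sko, against 548, 742 and 782 CPM in controls. Its log2 fold change was -0.54 ± 0.15 (edgeR adjusted p = 0.00541), and the highest sko library lay just under the lowest control.

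The makeup of TET transcripts also differed between the groups. Tet3 took 95.8% to 96.7% of the summed Tet RPKM in sko libraries and 99.2% to 99.4% in controls. The ratio of Tet3 to Tet1 RPKM was 36.0 ± 5.57 in sko and 273 ± 96.8 in control oocytes (SD, n = 3 each), with no overlap between libraries. Even so, Tet3 stayed at least 31.4 times as abundant as Tet1 in every sko library.

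Of the guards, Zfp57 had 2987, 2851 and 2871 CPM in sko, against 4100, 3969 and 3224 CPM in control libraries. All sko libraries were lower (log2 fold change -0.37 ± 0.13, edgeR adjusted p = 0.0222). Dppa3 had 296, 419 and 327 CPM in sko, against 288, 342 and 383 CPM in controls, which overlap throughout (0.04 ± 0.15, edgeR adjusted p = 0.842).

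The scaling and single libraries decided part of these calls. Under library size alone, the median of all genes was 0.21 on the log2 scale instead of 0.02 and 66.9% of calls were higher instead of 53.1%, Dnmt3l, Tet3, Uhrf1 and Zfp57 lost their calls, which left 4 of 10, and Dnmt3a turned to 0.10. Without growing_control replicate 2 or growing_sko replicate 5, Dnmt3l, Uhrf1 and Zfp57 lost theirs, which left 5. Calls over all genes were 6772 and 6625 there and 7211 under library size alone, against 7566. Uhrf1 also lost its call without growing_control replicate 3, Dnmt3l and Uhrf1 without growing_sko replicate 4, and Dnmt3l and Zfp57 without growing_sko replicate 6, with edgeR adjusted p = 0.0647 to 0.132 for Dnmt3l, which also missed the threshold with no filter on low counts (0.0629). Dnmt1, Dnmt3b, Tet1, Tet2 and Tet3 passed without any 1 library.

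Granulosa and cumulus markers took 0.00873% to 0.00933% of counts in sko and 0.00256% to 0.00286% in control libraries, with 7 of 17 above a mean of 1 CPM, 4 higher and 0 lower of 10 tested, and Ptx3 at 0 throughout. Theca and stroma markers took 0.000496% to 0.000883% in sko and 0.000290% to 0.000351% in control libraries (Insl3 at 0, 1 of 12 above 1 CPM), and immune, endothelial and blood markers 0.00205% to 0.00229% in sko and 0.00167% to 0.00180% in control libraries (Emr1 at 0). Oocyte markers took 5.14% to 5.60% in sko and 5.75% to 5.94% in control libraries. Fewer cells of a type and less RNA per cell cannot be told apart in such libraries, and the part of these marker lists in the changes of the members was not tested.

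**Figure D2:**
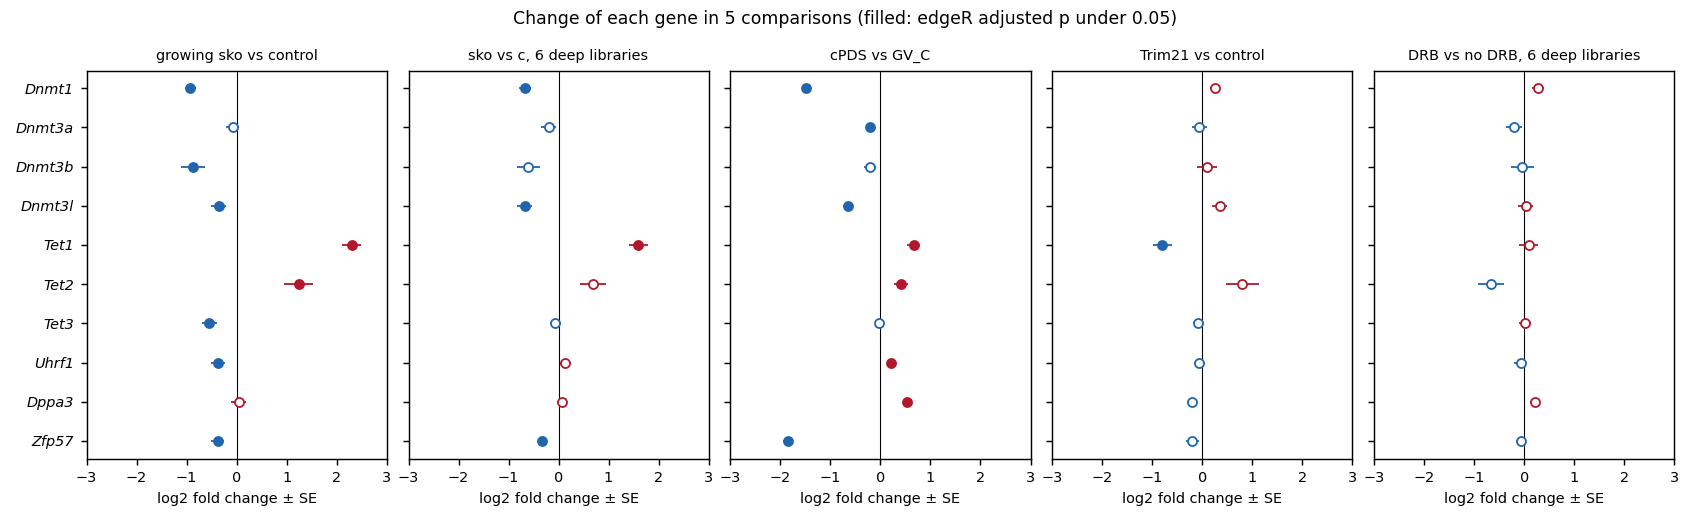
Log2 fold change with its SE (horizontal bars) of the 10 genes in 5 comparisons, each sko, cPDS, Trim21 or DRB group over its own control; filled points passed edgeR's adjusted p of 0.05, red is higher and blue is lower. Tet1 is the highest point in both sko panels (2.30 and 1.59) and Zfp57 and Dnmt1 are the lowest with cPDS (-1.85 and -1.48).

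The genes around the members were read through 5 lists. Of 28 tested cofactors and chromatin partners in growing sko oocytes, 5 rose and 12 fell (median -0.25 on the log2 scale, against 0.02 for all genes), but 10 rose and 7 fell with library size alone. Kdm1b, which encodes a histone demethylase that oocyte imprinting needs, averaged 162 ± 19.1 CPM in sko and 43.7 ± 9.10 CPM in controls (log2 1.88 ± 0.16). Morc1, a transposon silencing gene of the mouse male germline, rose by 1.19 ± 0.13. Dmap1, named for the binding of its protein to DNMT1, averaged 35.6 ± 2.90 CPM in sko and 77.7 ± 4.82 CPM in controls (-1.13 ± 0.12).

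Of 33 imprinted genes tested, 13 rose and 7 fell (median 0.49), and library size alone gave 14 and 6. Impact, an imprinted regulator of translation, averaged 51.3 ± 5.38 CPM in sko and 4.07 ± 1.11 CPM in control oocytes (log2 3.65 ± 0.19), and the noncoding Meg3 averaged 16.8 ± 2.38 CPM in sko and 4.77 ± 0.0798 CPM in controls (1.81 ± 0.17; SD, n = 3 each). Usp29 and H13 fell by 1.08 (SE 0.16) and 0.73 (SE 0.12). Since these are levels of both alleles together, they give no allelic expression. Base excision and demethylation repair genes had 2 higher and 7 lower of 20, methyl donor genes 4 and 6 of 19, and methyl-CpG readers 1 and 2 of 12, which became 3 and 5, 5 and 3, and 2 and 1 with library size alone. Mat2a, which makes the methyl donor S-adenosylmethionine, fell by 0.83 (SE 0.13), and the reader gene Zbtb33, encoding Kaiso, by 0.98 (SE 0.18). Lists such as these were chosen with earlier results known, and the share called was lowest for readers, 3 of 12 genes, and highest for cofactors at 60.7%, against 53.7% of all genes.

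The second experiment asked the same of other libraries, 3 sko and 3 c, of which 2 sko and 1 c had DRB, and DRB was a term of the model. Dnmt1, Dnmt3l and Zfp57 fell and Tet1 rose, 4 of 10 members, against 36.0% of 16784 genes called (19.2% higher, 16.8% lower). These 4 were also called in growing oocytes, where all 4 had the same direction, and the 2 experiments share no library. Over the 13839 genes tested in both, 28.5% were called in both, and 95.2% of these had the same direction, so shared calls and a shared direction are common among all genes. Groups did not overlap for 5 of 10 members and for 48.2% of all genes.

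Tet1 had 40.5 CPM in rhau_sko, 43.1 and 35.3 CPM in rhau_sko_DRB, against 14.8 and 9.70 CPM in c and 14.3 CPM in c_DRB. Each sko library was more than any c library, with or without DRB, and the change was 3.01-fold (log2 1.59 ± 0.19, edgeR adjusted p = 1.12e-04). Dnmt1 had 694 CPM in rhau_sko, 805 and 645 CPM in rhau_sko_DRB, against 994 and 910 CPM in c and 1334 CPM in c_DRB. It was lower in 3 of 3 sko libraries (-0.67 ± 0.12, edgeR adjusted p = 0.00194).

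Dnmt3l averaged 58.1 ± 6.65 CPM in sko and 92.6 ± 13.7 CPM in c libraries (SD, n = 3 each; -0.68 ± 0.14, edgeR adjusted p = 0.00410), with the overlap with Aire as before. Zfp57 had 1063 CPM in rhau_sko, 937 and 931 CPM in rhau_sko_DRB, against 1232 and 1236 CPM in c and 1264 CPM in c_DRB (-0.33 ± 0.09, edgeR adjusted p = 0.0190). Dnmt3b and Tet2 missed the threshold at -0.60 ± 0.23 and 0.68 ± 0.26 (edgeR adjusted p = 0.0595 and 0.0586). DESeq2 called both, for 6 members and 6608 genes in all, against 6043 genes in edgeR. Dnmt3a averaged 264 ± 54.1 CPM in sko and 317 ± 43.9 CPM in c libraries, Tet3 450 ± 39.0 and 470 ± 44.1 CPM, Uhrf1 229 ± 30.2 and 213 ± 15.3 CPM, and Dppa3 6327 ± 913 and 5705 ± 137 CPM. None of these 4 was called (edgeR adjusted p = 0.349 to 0.694).

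The makeup of TET transcripts differed here too. Tet3 was 92.0% of the summed Tet RPKM in rhau_sko and 91.3% to 92.2% in rhau_sko_DRB, against 95.9% to 96.3% in c and 97.1% in c_DRB. Tet1 itself made up 5.58% to 7.11% in rhau_sko_DRB and 2.02% in c_DRB.

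Without c_DRB replicate 3 only Tet1 kept its call (1 of 10), and calls over all genes fell from 6043 to 3678. Dnmt1 (-0.46, edgeR adjusted p = 0.0578), Dnmt3l (-0.39, 0.125) and Zfp57 (-0.22, 0.206) did not pass there. Zfp57 also missed the threshold without c replicate 1 or c replicate 2 (edgeR adjusted p = 0.0522 and 0.0519), with 4655 and 4967 genes called in all. Granulosa and cumulus markers took 0.0122% to 0.0181% of counts in sko and 0.00741% to 0.0102% in c libraries (Amh at 0, 6 of 17 above 1 CPM). Theca and stroma markers took 0.000626% to 0.00102% in sko and 0.000371% to 0.000522% in c libraries (Col3a1 and Insl3 at 0), and immune, endothelial and blood markers 0.00402% to 0.00509% in sko and 0.00596% to 0.00662% in c libraries (Hba-a1 and Hbb-b1 at 0). In the same order, oocyte markers took 1.32% to 1.49% and 1.98% to 2.29%, and mitochondrial transcripts 0.302% to 0.633% and 0.126% to 0.170%. Their part in the result was not tested.

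A test of the sko change in these 6 libraries minus that in the 6 growing ones called none of the 10 members in edgeR. It called 12.5% of 17437 genes, 4.91% higher and 7.63% lower. An unadjusted p under 0.05, a share not counted over all genes, was reached by 3 members. These were Tet1 (difference of log2 fold changes -0.74, edgeR adjusted p = 0.0860), Uhrf1 (0.47, 0.122) and Tet3 (0.45, 0.155). DESeq2 called 2, Uhrf1 (0.58, adjusted p = 0.0284) and Tet3 (0.55, 0.0438). edgeR called all 3 without growing_control replicate 1, and it called 1 without growing_sko replicate 6 (Uhrf1) or c replicate 2 (Tet1). Calls over all genes were 3020 with DESeq2 and, without these libraries in the same order, 2510, 1813 and 1737, against 2187. The scaling matters for this difference, as the median of all genes was -0.08 with TMM, 0.03 with RLE factors and -0.25 with library size alone, and the share of calls that were higher was 39.2%, 53.8% and 17.4% under the 3 scalings. For Kdm1b the difference was -1.15 ± 0.21 and for Impact -2.86 ± 0.33 (edgeR adjusted p = 0.00152 and 1.64e-05), so their rise was smaller in the second experiment.

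Of the 5 lists there, methyl donor metabolism had 0 higher and 7 lower of 20 (median -0.38, against 0.01 for all genes), a share near the 36.0% of all genes called. Mat2a averaged 23.99 ± 3.19 CPM in sko and 66.2 ± 8.87 CPM in c libraries (-1.39 ± 0.14), and Gnmt, whose enzyme uses up S-adenosylmethionine, averaged 7.21 ± 0.197 and 18.2 ± 2.25 CPM (-1.37 ± 0.19; SD, n = 3 each). Cofactors and partners had 4 higher and 5 lower of 29, with Cdca7, which encodes the partner of the remodeller HELLS, at -1.96 ± 0.26 and Dmap1 again lower at -0.72 ± 0.12. Repair genes had 4 and 5 of 22, with Apex2, an AP endonuclease gene, at -1.51 ± 0.22 and the uracil glycosylase gene Ung at 0.76 ± 0.15. Readers had 1 and 1 of 14. Imprinted genes had 9 and 6 of 39, led by Dio3, an imprinted deiodinase gene, with 30.2 ± 6.62 CPM in sko and 0.591 ± 0.111 CPM in c libraries (5.54 ± 0.26), while Usp29 fell by 1.60 (SE 0.21) and Mest by 0.93 (SE 0.13). With library size alone these counts were the same but for 8 lower methyl donor genes and 6 lower cofactors.

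For DRB against no DRB in the same 6 libraries, edgeR called 0 of 10 members, and 0.0119% of 16784 genes (2 genes, 0.00596% in each direction). An unadjusted edgeR p under 0.05 was reached by Tet2, with a log2 fold change of -0.67 ± 0.26 (adjusted p = 0.318), and Dnmt1, with 0.27 ± 0.12 (adjusted p = 0.396). DESeq2 called 0 members and 553 genes in all, with Tet2 alone of the members at an unadjusted p under 0.05. The share of all genes at that unadjusted p was not counted for either tool. Tet2 had 6.21 and 8.63 CPM in rhau_sko_DRB and 3.92 CPM in c_DRB, against 10.1 CPM in rhau_sko and 6.28 and 8.40 CPM in c. Dppa3 was the 1 member whose groups did not overlap, with 6510 ± 596 CPM with DRB and 5522 ± 235 CPM without (SD, n = 3 each), as was the case for 10.3% of all genes. None of the tested genes of the 5 lists was called.

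In GV oocytes treated with cPDS for 12 h, Dnmt1 and the imprint keeper Zfp57 were much lower than in GV_C, and Dppa3 was higher. Since the labels give no time for GV_C, the parts of cPDS and of the 12 h in these changes cannot be told apart. Zfp57 fell 3.61-fold and Dnmt1 2.80-fold, while Dppa3, already the most abundant member, rose 1.43-fold. As in the other comparisons, these changes are relative to the other transcripts of a library, and these counts do not give the amount per oocyte. In all 4 members rose (Tet1, Tet2, Uhrf1, Dppa3), 4 fell (Dnmt1, Dnmt3a, Dnmt3l, Zfp57) and Dnmt3b and Tet3 were not called. edgeR called 50.8% of 16115 genes, 23.4% higher and 27.4% lower. The groups did not overlap for 8 of 10 members and for 58.1% of all genes.

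Zfp57, the imprint keeper, had 523, 423 and 368 CPM with cPDS, against 1524, 1598 and 1624 CPM in GV_C.
All treated libraries were far below all controls (log2 fold change -1.85 ± 0.10, edgeR adjusted p = 4.59e-10). Dnmt1 had 363, 310 and 302 CPM with cPDS, against 875, 1020 and 832 CPM in GV_C. The 2 groups again stood apart (-1.48 ± 0.09, edgeR adjusted p = 1.35e-09).

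Uhrf1, the partner of Dnmt1, had 232, 269 and 263 CPM with cPDS, against 219, 219 and 226 CPM in GV_C. It was slightly higher in 3 of 3 libraries (0.20 ± 0.07, edgeR adjusted p = 0.0233), but missed the threshold with library size alone (0.17, adjusted p = 0.0506) and without each of 4 libraries in turn, GV_C replicates 1 and 3 and cPDS replicates 2 and 3 (edgeR adjusted p = 0.0552 to 0.110). The 2 genes of the maintenance machinery thus moved apart. The ratio of Dnmt1 to Uhrf1 RPKM was 1.04 ± 0.193 with cPDS and 3.33 ± 0.405 in GV_C (SD, n = 3 each), and it was 2.05 or higher in every library without cPDS.

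Of the de novo genes, Dnmt3l had 139, 136 and 123 CPM with cPDS, against 230.5, 180 and 215 CPM in GV_C. Its fall was without overlap (-0.66 ± 0.09, edgeR adjusted p = 1.43e-05), and the overlap of exons with Aire applies. Dnmt3a averaged 142 ± 10.6 CPM with cPDS and 165 ± 3.52 CPM in GV_C (-0.22 ± 0.07, edgeR adjusted p = 0.0186), a call lost without GV_C replicate 3 or cPDS replicate 2 or 3 (adjusted p = 0.0777, 0.144 and 0.0525). Dnmt3b averaged 10.6 ± 1.00 and 12.2 ± 0.881 CPM and was not called (-0.20 ± 0.12, edgeR adjusted p = 0.168). Dnmt1 made up 51.5% to 54.5% of the summed Dnmt RPKM with cPDS and 65.1% to 72.8% in GV_C, and Dnmt3l 36.8% to 39.7% and 22.6% to 30.2%.

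Of the erasers, Tet1 had 16.5, 16.2 and 15.5 CPM with cPDS, against 8.38, 12.2 and 9.79 CPM in GV_C. It was higher in 3 of 3 libraries (0.66 ± 0.13, edgeR adjusted p = 5.95e-04). Tet2 averaged 5.80 ± 0.476 CPM with cPDS and 4.36 ± 0.158 CPM in GV_C (0.41 ± 0.14, edgeR adjusted p = 0.0249), and missed the threshold without GV_C replicate 1 or 3 or cPDS replicate 3 (adjusted p = 0.0678, 0.0817 and 0.104) or with no filter on low counts (adjusted p = 0.0501). Tet3 had 369, 359 and 356 CPM with cPDS, against 363, 370 and 370 CPM in GV_C. These values overlap and hardly vary (-0.02 ± 0.06, edgeR adjusted p = 0.762).

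Of the guards, Dppa3 had 6369, 6088 and 6768 CPM with cPDS, against 3992, 5068 and 4342 CPM in GV_C. The lowest treated library was above the highest control (0.52 ± 0.07, edgeR adjusted p = 2.74e-05). With Zfp57 lower, the ratio of Dppa3 to Zfp57 RPKM was 63.6 ± 13.4 with cPDS and 11.97 ± 1.29 in GV_C (SD, n = 3 each). In growing oocytes that ratio was under 1, with 0.509 ± 0.104 in sko and 0.390 ± 0.105 in control libraries.

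**Figure D3:**
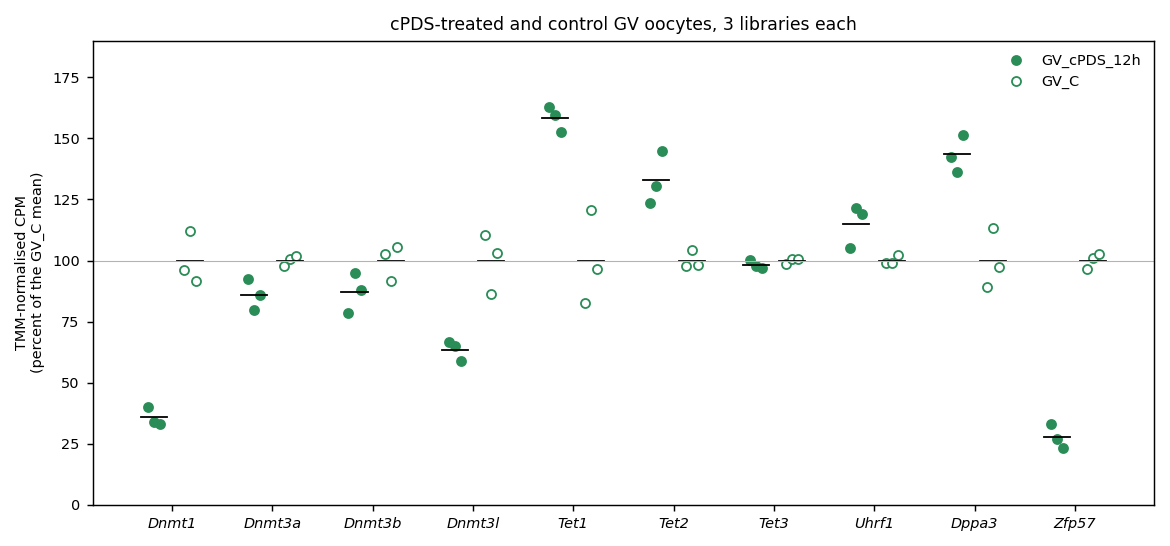
TMM-normalised CPM of the 10 genes in the 3 cPDS libraries (filled) and the 3 GV_C libraries (open), as a percent of the GV_C mean of each gene, with bars at the group means. Zfp57 and Dnmt1 lie lowest with cPDS, Tet1 and Dppa3 highest, and Tet3 lies beside its controls.

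**Figure D4:**
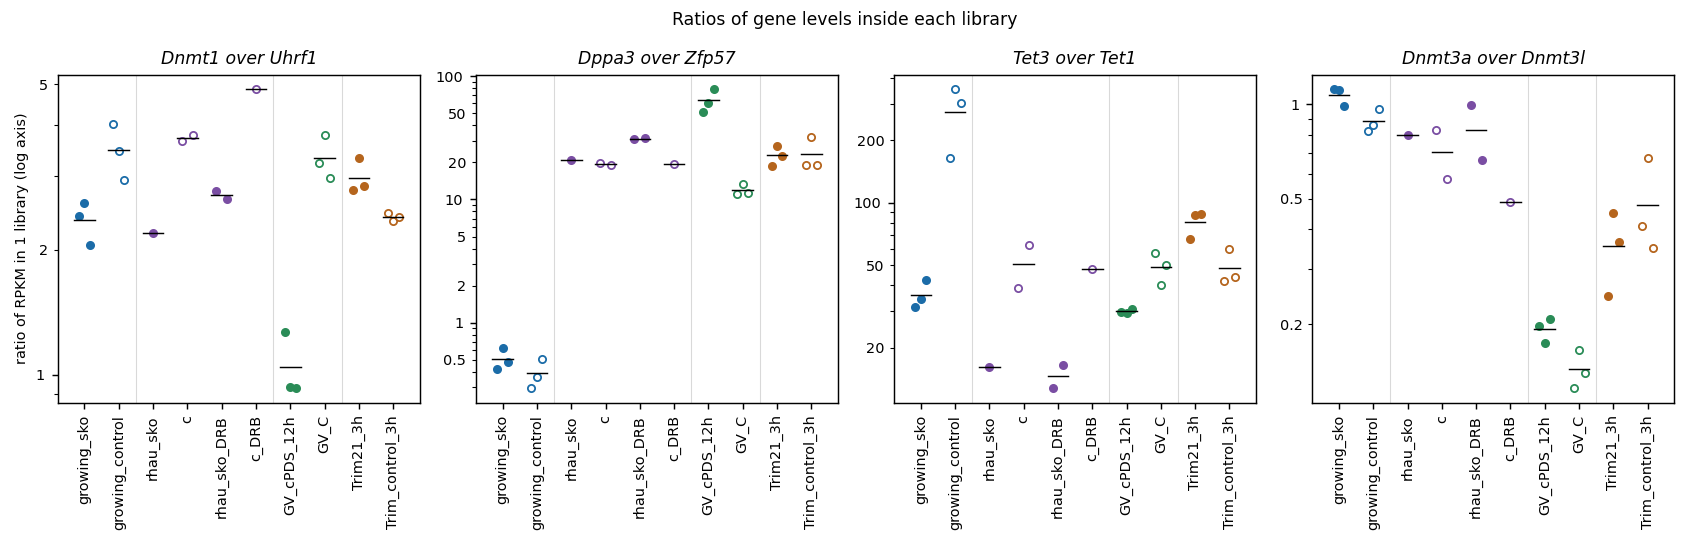
Ratio of the RPKM of 2 genes inside each library (log axis) in the 10 groups, with colours and fills as in the plot of levels and bars at group means. The cPDS libraries hold the lowest Dnmt1 to Uhrf1 ratios (mean 1.04) and the highest Dppa3 to Zfp57 ratios (mean 63.6), and growing control libraries the highest Tet3 to Tet1 ratios (mean 273).

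Dropping GV_C replicate 3 or cPDS replicate 3 left 5 members called (Dnmt1, Dnmt3l, Tet1, Dppa3, Zfp57), and these 5 passed in every alternative tried. Calls over all genes were 7012 and 7165 without those libraries, against 8191. Dhx36 was higher with cPDS at 0.73 ± 0.10 (edgeR adjusted p = 1.82e-05). Granulosa and cumulus markers took 0.00924% to 0.0107% of counts with cPDS and 0.0117% to 0.0122% in GV_C (Ptx3 at 0, 7 of 17 above 1 CPM), immune, endothelial and blood markers 0.00262% to 0.00285% and 0.00704% to 0.00738%, and oocyte markers 3.14% to 3.51% and 3.03% to 3.36%. Their part in the result was not tested.

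The repair list fell with cPDS more often than it rose, with 3 higher and 12 lower of 21 (71.4% called, against 50.8% of all genes; median -0.44, against 0.01 for all genes). Ung, whose enzyme removes uracil from DNA, averaged 4.45 ± 0.947 CPM with cPDS and 57.6 ± 5.79 CPM in GV_C (-3.73 ± 0.14), and Parp1, a sensor gene of DNA breaks, 7.68 ± 0.755 and 23.8 ± 0.810 CPM (-1.62 ± 0.11; SD, n = 3 each). Polb, the repair polymerase gene, went the other way at 0.41 ± 0.07. Methyl donor genes had 1 higher and 8 lower of 19 (median -0.24), with Shmt2, the mitochondrial serine hydroxymethyltransferase gene of folate metabolism, at 4.59 ± 1.04 CPM with cPDS and 37.4 ± 1.06 CPM in GV_C (-3.06 ± 0.14). Adk, which clears the adenosine left by methylation, fell by 0.80 (SE 0.07).

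Cofactors and partners had 13 higher and 7 lower of 29, among them Usp7, a deubiquitinase gene whose protein binds DNMT1 and UHRF1, at 0.56 ± 0.06 and Atf7ip, a partner gene of SETDB1, at 0.62 ± 0.07. Nsd1, a histone methyltransferase gene, fell by 0.86 (SE 0.08) and Cbx1, a heterochromatin protein gene, by 0.89 (SE 0.09). Readers had 3 higher and 3 lower of 13, with Mbd1 at -1.61 ± 0.18 and Cxxc1 at 0.67 ± 0.11. Imprinted genes had 9 higher and 14 lower of 36 (median -0.02), with Mest at -0.90 ± 0.07, Snrpn at -0.90 ± 0.09 and H13 at 0.72 ± 0.07. With library size alone no list count moved by more than 1 gene in either direction.

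In the Trim21 libraries at 3 h, where Dhx36 transcripts were lower by 1.99 ± 0.18 on the log2 scale, 1 of 10 members was called, Tet1, and it was lower. edgeR called 11.5% of 14191 genes, 6.26% higher and 5.23% lower. Tet1 had 7.33, 6.03 and 6.47 CPM with Trim21, against 12.3, 10.5 and 12.1 CPM in controls. These rest on 45 counts in Trim21 replicate 2 and 149 to 253 in the other libraries. The groups did not overlap, as for 30.1% of all genes (-0.80 ± 0.19, edgeR adjusted p = 0.0157). The call was lost without Trim_control replicate 1 or 3 or Trim21 replicate 3 (0 called, edgeR adjusted p = 0.0598 to 0.0660), where 1113, 1093 and 928 genes were called in all. Without Trim_control replicate 2 Zfp57 was added (2 called), with 1936 genes in all, against 1630 with every library.

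Besides Tet1, an unadjusted edgeR p under 0.05 was reached by Tet2 (0.80 ± 0.33), Dnmt3l (0.35 ± 0.15) and Dnmt1 (0.25 ± 0.10), each higher on average. Their edgeR adjusted p ran from 0.150 to 0.165, so none was called. The share of all genes at that unadjusted p was not counted. Dnmt1 had 835, 939 and 967 CPM with Trim21, against 710, 839 and 762 CPM in controls. The 2 groups overlapped by 1 library. Zfp57 averaged 1345 ± 165 CPM with Trim21 and 1551 ± 247 CPM in controls, Dppa3 7135 ± 577 and 8231 ± 1148 CPM, Tet3 398 ± 30.5 and 421 ± 46.1 CPM, and Uhrf1 249 ± 24.1 and 260 ± 27.6 CPM (SD, n = 3 each). None of these 4 was called (edgeR adjusted p = 0.246 to 0.805). Granulosa and cumulus markers took 0.00698% to 0.00791% of counts with Trim21 and 0.00502% to 0.00533% in controls (Amh and Foxl2 at 0, 5 of 17 above 1 CPM), and their part in the result was not tested.

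Few genes of the 5 lists were called there. Dmap1 averaged 67.5 ± 6.25 CPM with Trim21 and 108 ± 20.2 CPM in controls (-0.68 ± 0.15, edgeR adjusted p = 0.0105), and Apex1, the main AP endonuclease gene, 15.1 ± 0.909 and 23.5 ± 4.19 CPM (-0.64 ± 0.17, edgeR adjusted p = 0.0293). Adk rose by 0.35 ± 0.10 on the log2 scale (edgeR adjusted p = 0.0421). Of the imprinted genes, 0 of 33 were called and of the readers 0 of 12.

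Set side by side, the change of Tet1 was 2.30 ± 0.18 and 1.59 ± 0.19 in the sko comparisons, 0.66 ± 0.13 with cPDS and -0.80 ± 0.19 with Trim21 (log2 fold change ± SE). For Dnmt1 the values were -0.92 ± 0.12, -0.67 ± 0.12, -1.48 ± 0.09 and 0.25 ± 0.10, the last not called. Zfp57 gave -0.37 ± 0.13, -0.33 ± 0.09, -1.85 ± 0.10 and -0.21 ± 0.13, the last not called. Differences between agents were not tested, since time and stage differ where they are given.

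Likeness among the members was read over the 18 libraries used from the first table, with log2 CPM centred within each of its 3 experiments, as a description. The points share scaling and the treatment contrasts. Dnmt1 and Zfp57 were the most alike (Pearson r = 0.896), then Dnmt1 and Dnmt3l (0.818), Dnmt3l and Zfp57 (0.771), Tet3 and Uhrf1 (0.715) and Tet1 and Tet2 (0.705). Dnmt3b and Tet1 were the most opposed (-0.779), then Dppa3 and Zfp57 (-0.704). Among 6793 genes, the nearest to Zfp57 were Kars (0.994), which encodes a tRNA synthetase, and Nkd1 (0.993), and to Dnmt1 Os9 (0.976) and Aifm1 (0.973). Nearest to Tet1 were Il2ra and Ptpn22 (0.985 and 0.985), to Tet3 Akap1 (0.962) and Slc23a2 (0.942), to Uhrf1 Nploc4 (0.948) and Rhpn2 (0.914), and to Dppa3 Snrpe (0.947) and Npm1 (0.927). Dnmt3l was nearest to Grina (0.945) and Rpa2 (0.945), and Dnmt3a to Zfhx3 (0.854) and Tpr (0.846).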

How the data were processed

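Per the labels, polyA RNA of ovary oocytes was sequenced. Per the file headers, the deposited values are raw read counts per gene in the column layout of featureCounts. Tools in the submitters' processing notes include HISAT2 2.1.0, STAR 2.5.2b, featureCounts 2.0.1 and build mm9, without saying which made which table. The strand setting is not given in the sources used here. Of 26 libraries with counts, the 24 with at least 200000 were used. Another table holds the same counts as the first (23 columns, 0 differing cells), so it was set aside. Remaining assays of the study were not analysed here.

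CPM and RPKM were computed from the counts, library totals and deposited exon lengths. edgeR 4.0.16 in R 4.3.3 was run within each experiment (filterByExpr, minimum count 10, TMM, quasi-likelihood test, Benjamini-Hochberg adjustment over all genes tested, threshold 0.05). All 10 members passed the filter in each comparison. The SE is |log2 fold change| divided by √F. The deep DRB libraries were fitted with genotype and DRB as terms. The fit was tested on simulated data. Alternatives were DESeq2 1.42.0, RLE factors, library size alone, no filter, 1 term per group, a replicate block and leaving out each library. The members and gene lists were chosen with earlier results of these data known. Beyond the members, the text names Dhx36, Trim21, genes from the 2 called with the smallest p in each direction of each list, and the 2 genes most like each member whose mean log2 CPM was 3 or more. Stated SDs hold counting error and the spread between libraries together. A result that needs a withheld item is not reported here.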

Additional observations from a re-analysis of the deposited data

How the results depend on the processing

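Of 277 refits of a called member or targeted gene under an alternative, 240 kept direction and call and 37 kept direction and lost the call. Of 504 refits of uncalled ones, 451 stayed uncalled, 14 became called and 39 changed sign. Library size alone called 4 members instead of 8 in growing oocytes (7211 genes in all, against 7566) and turned Dnmt3a to 0.10. For the sko change between experiments, with 0 members called, library size alone called 1, DESeq2 2 and no filter on low counts 1. Calls over all genes there were 2317, 3020 and 2537, against 2187. In that comparison Dppa3 turned to 0.10 with RLE factors and 0.10 with DESeq2, and Zfp57 to -0.17 with library size alone. For DRB, Tet3 turned to -0.0022 with 1 term per group, and calls over all genes were 2, against 553 with DESeq2, 492 with no filter and 22 with 1 term per group. The cause of these differences was not tested.

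Leaving out each library in turn, members called ran from 5 to 8 in growing oocytes, 1 to 4 in the deep sko libraries, 0 to 0 for DRB, 5 to 8 for cPDS, 0 to 2 for Trim21 and 0 to 3 between experiments. In the same order, calls over all genes ran from 6625 to 7687, 3678 to 6066, 1 to 8, 7012 to 8066, 928 to 1936 and 1166 to 2510. With all libraries they were 7566, 6043, 2, 8191, 1630 and 2187. Signs changed for uncalled members, with these ranges of log2 fold change. In growing oocytes Dppa3 ran from -0.12 to 0.14. In the deep sko libraries Tet3 ran from -0.31 to 0.14, Uhrf1 from -0.0752 to 0.30 and Dppa3 from -0.11 to 0.20. For DRB the ranges were -0.17 to 0.12 (Dnmt3b), -0.29 to 0.33 (Dnmt3l), -0.0661 to 0.23 (Tet1), -0.22 to 0.23 (Tet3), -0.27 to 0.10 (Uhrf1) and -0.20 to 0.0370 (Zfp57). For Trim21 they were -0.18 to 0.0701 (Dnmt3a), -0.0069 to 0.28 (Dnmt3b), -0.14 to 0.0063 (Tet3) and -0.15 to 0.0166 (Uhrf1). Between experiments they were -0.0258 to 0.46 (Dnmt1), -0.27 to 0.0307 (Dnmt3a), -0.15 to 0.26 (Dppa3) and -0.13 to 0.24 (Zfp57).

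Replicate numbers were not shown to pair the libraries, as same-numbered cPDS and GV_C libraries correlated at -0.06, -0.03 and -0.04 and the Trim21 and control ones at 0.07, 0.09 and -0.05. With the replicate block 7 members were called for cPDS (7559 genes in all, against 8191; Uhrf1 at 0.20, edgeR adjusted p = 0.0586) and 1 for Trim21 (1762 genes, against 1630). Tet2, Tet1 and Dnmt3b have the fewest counts and limit what small changes can be seen.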
